A study of Mus musculus with 3 samples.

Results

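The genes described here are 47 genes of the cell cycle, 20 that act in or before DNA replication (S genes) and 27 that act from G2 through cell division (mitotic genes). They were taken by name from lists of well known cell cycle genes. All 47 were found among the 27755 gene rows of the D10 culture, the 27755 of the E14.5 tail and the 25936 of the D6 PM library. Their levels were followed across the cell clusters of all 3 libraries, as the gene's share of all unique molecular identifiers (UMIs) of the cluster's cells, on the usual CPM scale.

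The study differentiated mouse embryonic stem cells that carry ScxGFP, a green fluorescent reporter of the tendon transcription factor *Scx*, and compared the product with embryonic tail, a tissue rich in forming tendon and fibrocartilage. For the D6 PM library (Differentiated Paraxial Mesoderm), cells were grown as embryoid bodies for 2 days with 500 nM of the BMP receptor inhibitor LDN-193189. They then received LDN-193189 with 5 µM CHIR, an activator of Wnt signaling, up to day 6. The D10 culture (Differentiated Tenocytes) went on to day 10 with 10 ng/mL TGFβ1, 100 nM of the hedgehog agonist SAG and 10 ng/mL FGF2. The stem cells of both cultures had been kept on irradiated embryonic fibroblasts with LIF, and 3 reporter lines were used in the study. Tail cells came from E14.5 embryos of ScxGFP dams. Each group is 1 library, so no difference between groups or clusters has a replicate check, no test was made, and the 95% intervals below cover counting error only.

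The libraries held 7821 cells (D10 culture), 2052 (E14.5 tail) and 5954 (D6 PM), with median depths of 5622, 13512 and 8171 UMIs per cell and totals of 53403944, 31343741 and 51858825 UMIs. Between 3 and 10 cell barcodes were shared by each pair of libraries. Cells are grouped by the cluster codes that the authors deposited with the counts. The codes of culture and tail share 1 numbering, because the culture cells were placed onto tail clusters, while D6 PM has a numbering of its own. A cluster is called "-like" a cell type only where fixed markers gave that name. Codes 1 and 2 of culture and tail are tendon-like, and cell cycle genes lead code 2. Code 4 is cartilage-like and code 11 endothelium-like in both. Culture code 3 is pluripotent-like and code 8 epithelium-like, although hormone genes such as *Gcg* and *Iapp* lead it. In the tail, code 5 is muscle-like, 6 and 12 erythroid-like, 8 skin epithelium-like, 10 neuron-like and 14 glia-like. In D6 PM, codes 1 and 3 are epithelium-like, with cell cycle genes leading 3, code 2 is pluripotent-like and code 4 paraxial mesoderm-like. D6 PM code 4 had paraxial mesoderm markers at 391 CPM, but also fibroblast markers at 892 and muscle markers at 341, and *Myog* is among its leading genes. The other codes go by number, and 3 culture codes of 1 or 2 cells are not described. Clusters were made from these same counts, so differences between clusters are descriptions.

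A dividing cell copies its DNA in S phase and separates the copies in mitosis. Before S phase the MCM helicase is loaded on DNA and then started, cyclin E with its kinase commits the cell to replication, and nucleotide synthesis is turned up. Before mitosis, cyclin B with Cdk1 starts chromosome condensation and spindle assembly, and the anaphase-promoting complex (APC/C) later destroys the cyclin so that the cell can exit. Transcripts of the S genes peak around the G1/S transition, under E2F factors, and those of the mitotic genes around G2 and M, under the MuvB complex with B-MYB and FOXM1 and under NF-Y.

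Among the S genes, *Mcm2* to *Mcm7* encode the helicase, *Cdc6* its loader, *Cdc45* and *Gins2* its activators, and *Gmnn* the protein that stops loading from happening again. *Tyms*, *Rrm1* and *Rrm2* make nucleotides, *Pcna* is the sliding clamp of the polymerases, *Uhrf1* carries DNA methylation over to the new strand, *Ung* removes uracil from DNA, and *Slbp* binds the stem-loop of histone mRNAs. *E2f1*, *Ccne1* and *Ccne2* act at the entry to S phase. Of the mitotic genes, *Ccna2*, *Ccnb1*, *Ccnb2* and *Cdk1* encode cyclins and their kinase, and *Cdc20* and *Ube2c* an activator and the ubiquitin-conjugating enzyme of the APC/C. *Aurka*, *Aurkb*, *Plk1*, *Bub1*, *Bub1b* and *Ttk* are mitotic kinases or checkpoint proteins. *Cenpa*, *Cenpe*, *Cenpf*, *Ndc80* and *Nuf2* belong to the centromere and kinetochore. *Kif11*, *Kif23*, *Kif20a*, *Tpx2*, *Nusap1*, *Prc1* and *Hmmr* build and organize the spindle. *Top2a* untangles sister DNA, *Mki67* coats mitotic chromosomes, and *Birc5* (survivin) works with Aurora B.

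Promoter sequence of 39 of the 47 genes was found in a RefSeq promoter table of GRCm38.p6, and 7 are shown because they hold the motifs by which such genes are usually told apart and because the results below turn on their genes. Each runs 5′ to 3′ in the direction of the gene and ends 1 base before its start. Capitals mark 3 kinds of letters, which were searched on both strands. The NF-Y box is CCAAT, which reads ATTGG on the other strand. The cell cycle homology region (CHR) is TTTGAA, which reads TTCAAA on the other strand, and the form TTCGAA was searched with it. The E2F site is TTTGGCGC, TTTCGCGC, TTTCCCGC or TTTGCCGC or the reverse complement of these.
*Cdk1*, chr10:69352913-69353052, minus strand: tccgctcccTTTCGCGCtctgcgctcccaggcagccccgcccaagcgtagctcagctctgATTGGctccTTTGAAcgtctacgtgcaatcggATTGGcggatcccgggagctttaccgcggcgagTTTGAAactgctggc
*Top2a*, chr11:99024190-99024379, minus strand: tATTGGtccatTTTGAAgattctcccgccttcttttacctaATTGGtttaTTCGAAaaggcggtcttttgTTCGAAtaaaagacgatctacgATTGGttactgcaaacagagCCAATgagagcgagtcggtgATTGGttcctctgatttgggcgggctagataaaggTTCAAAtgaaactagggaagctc
*Ube2c*, chr2:164769829-164769928, plus strand: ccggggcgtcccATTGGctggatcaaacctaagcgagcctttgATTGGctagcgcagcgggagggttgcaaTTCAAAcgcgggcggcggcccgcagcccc
*Cdc20*, chr4:118437344-118437413, minus strand: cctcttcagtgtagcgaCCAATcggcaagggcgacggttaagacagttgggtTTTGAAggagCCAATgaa
*Ccnb2*, chr9:70421555-70421654, minus strand: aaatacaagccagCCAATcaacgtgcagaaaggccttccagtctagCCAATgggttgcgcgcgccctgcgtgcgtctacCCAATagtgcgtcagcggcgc
*Mcm5*, chr8:75109349-75109508, plus strand: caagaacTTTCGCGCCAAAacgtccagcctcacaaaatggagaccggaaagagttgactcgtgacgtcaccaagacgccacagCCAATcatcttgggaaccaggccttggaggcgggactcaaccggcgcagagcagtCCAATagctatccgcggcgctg
*Mcm6*, chr1:128359706-128359825, minus strand: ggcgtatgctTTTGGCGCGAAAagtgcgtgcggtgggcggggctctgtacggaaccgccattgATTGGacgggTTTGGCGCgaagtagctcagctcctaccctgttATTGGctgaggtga

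*Top2a* holds 5 CCAAT boxes and 4 CHR matches in its stretch, *Ccnb2* 3 CCAAT boxes (its 1 CHR match lies upstream of the stretch shown), and *Cdk1* 2 CCAAT boxes, 2 CHR matches and 1 E2F site. The E2F sites of *Mcm5* and the first 2 of the 3 in *Mcm6* overlap on opposite strands. Over the 250 bases before each start, CCAAT was present in 20 of 24 mitotic promoters (83.3%) and 13 of 18 S promoters (72.2%), against 33.9% of the 32851 promoters in the table. CHR letters were present in 37.5% of mitotic and 16.7% of S promoters, against 17.1% of all, and the E2F letters in 4.17% (*Cdk1* alone), 27.8% and 1.86%. Both CCAAT and CHR occurred in 37.5% of mitotic, 16.7% of S and 6.02% of all promoters. In the 150 bases before the start CHR letters were in 29.2% of mitotic, 5.56% of S and 9.70% of all promoters, and E2F letters in 4.17%, 16.7% and 1.24%. So in both windows the 18 S promoters carried E2F letters more often and the 24 mitotic promoters CHR letters more often, while CCAAT was common to both lists. None of these letters was found in this window of *Nuf2*, *Nusap1*, *Birc5* and *Ndc80* or of *Tyms*, *Ung*, *Ccne1* and *E2f1*. A match is a run of letters and not a binding site.

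The first comparison asks how far each cluster expresses the genes of replication and of division. The mitotic list was high in the clusters led by cell cycle genes, and it varied far more than the S list. The summed S genes stood at 2087 CPM in the whole culture, 1410 in the tail and 1402 in D6 PM, and the mitotic genes at 5758, 2623 and 2754 CPM. Mitotic genes were highest in culture code 2 (11557 CPM), tail code 2 (10937) and D6 PM code 3 (7450). The S sum was highest in the same cluster only in the tail, where code 2 had 2856 CPM and code 3 had 2763. In the culture it was highest in code 5 (3710 CPM) and next in the pluripotent-like code 3 (3001 CPM), and in D6 PM in the pluripotent-like code 2 (2489 CPM). Culture code 2 had 2176.5 CPM of S genes, close to the 2087 CPM of the whole culture, and D6 PM code 3 had 1860 CPM. Culture code 5 is led by the muscle genes *Actc1*, *Myh3* and *Ttn*, with muscle markers at 467 CPM (7474 in the muscle-like tail code 5), but its pluripotent markers, at 1129 CPM, were higher, against 5575 CPM in culture code 3.

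**Figure D1:**
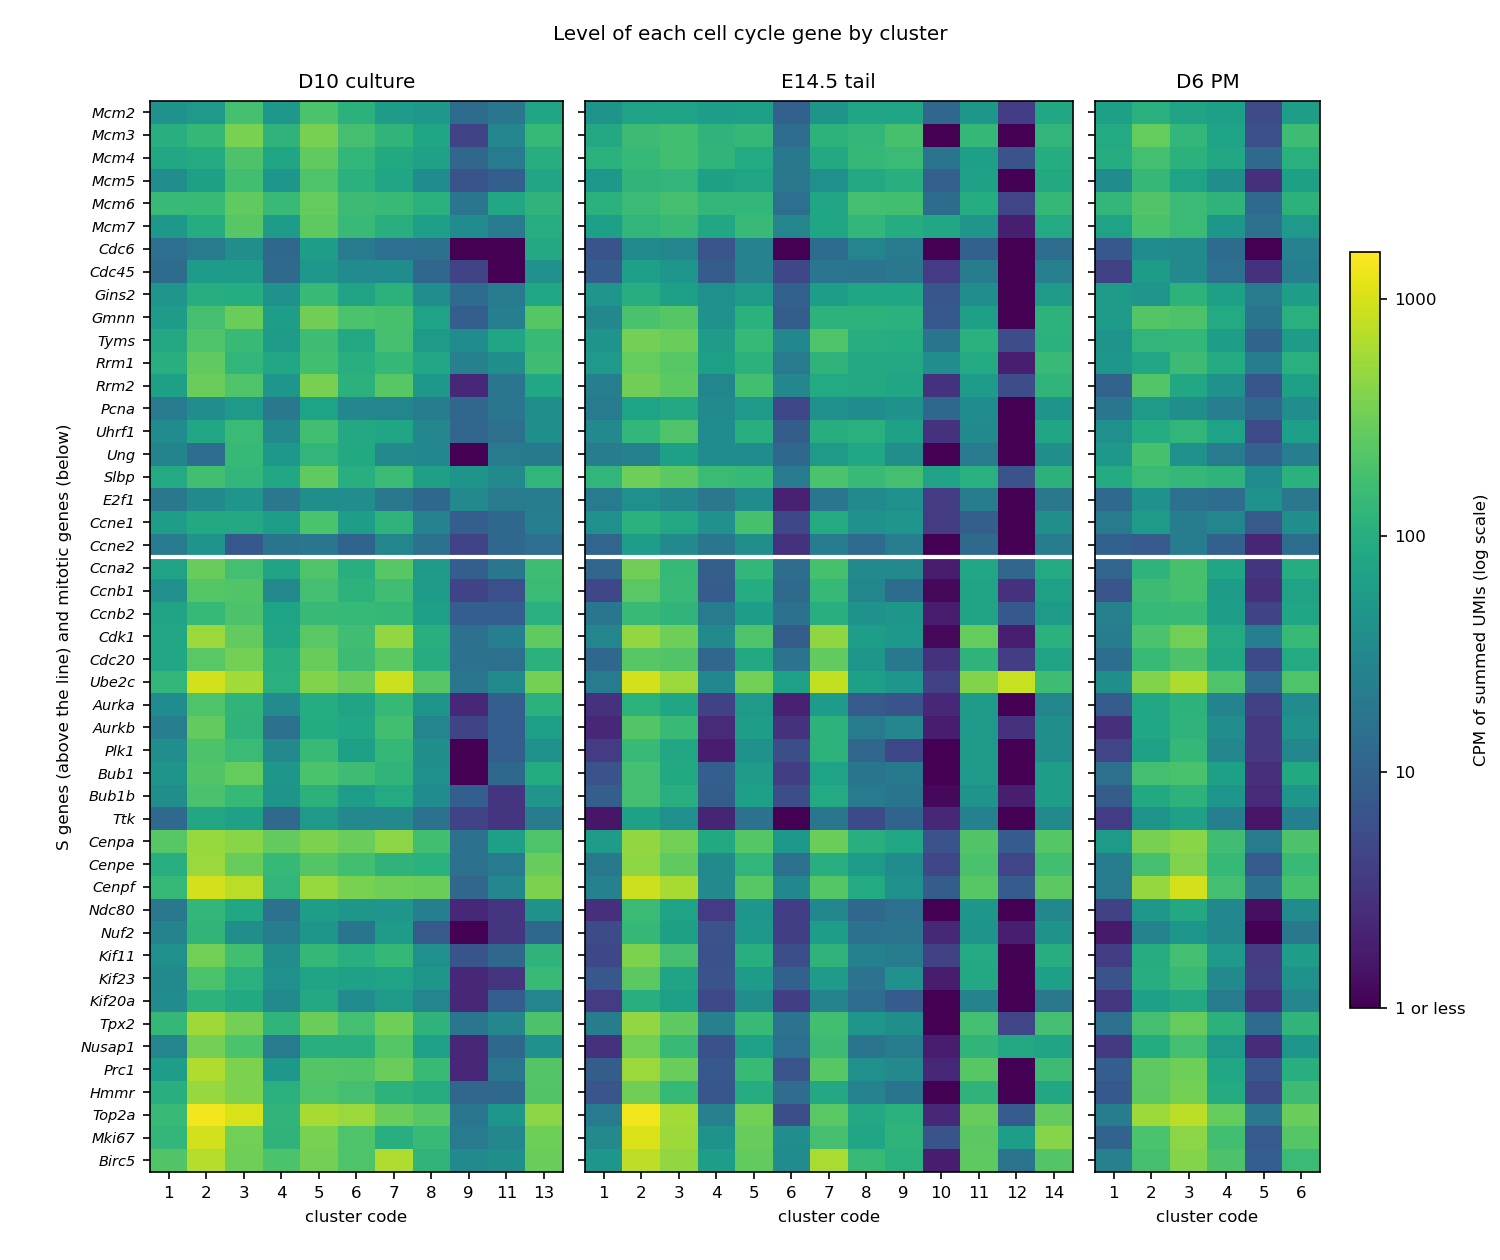
Level of each of the 47 genes (rows, S genes above the white line, mitotic genes below) in each cluster code (columns) of the 3 libraries, as CPM of summed UMIs on a log color scale. Culture code 2, tail code 2 and D6 PM code 3 are bright over most mitotic genes, and tail codes 10 and 12, culture code 9 and D6 PM code 5 are dark, apart from *Ube2c* at 849 CPM in tail code 12.

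Gene by gene, 24 of the 27 mitotic genes had their highest culture level in code 2. The exceptions were *Ccnb2* (201 CPM), *Cdc20* (344 CPM) and *Bub1* (276 CPM), which were highest in the pluripotent-like code 3, where code 2 had 139, 242 and 215 CPM. In the tail 26 were highest in code 2, with *Cdc20* highest in code 7 (274 CPM), a cluster of low depth. All 27 were highest in code 3 of D6 PM. The share of all genes that were highest or lowest in a cluster is not available here, and clusters were drawn partly on cell cycle genes. These counts, and those of the S genes below, therefore describe the clusters.

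The S genes were spread over more clusters. In the culture 12 of 20 were highest in code 5, 4 in code 2 (*Cdc45*, *Tyms*, *Rrm1* and *Ccne2*), 3 in code 3 (*Mcm3*, *Ung* and *E2f1*) and 1 in code 13 (*Cdc6*, 85.0 CPM). *Mcm3*, a helicase subunit, was at 365 CPM in culture code 3, 351 in code 5, 137 in code 2 and 101 in code 1. *Rrm2*, the small subunit of ribonucleotide reductase, was at 347 CPM in code 5, 291 in code 2, 207 in code 3 and 66.1 in code 1. So among these 4 clusters the helicase gene was high in codes 3 and 5 and low in both tendon-like ones, while the nucleotide gene was also high in the tendon-like code 2. In D6 PM 14 S genes were highest in the pluripotent-like code 2, 5 in code 3 and 1, *E2f1*, in code 5. Tail S genes were highest in code 2 (8 genes), code 3 (6), codes 5 and 9 (2 each), code 8 (*Ung*, 83.2 CPM) and code 14 (*Mcm2*, 80.0 CPM).

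The number of mitotic UMIs per S UMI of the same cells does not depend on how abundant other RNAs are, although its absolute size depends on which genes are listed. As a sum over cells it gives deeper cells more weight. It was 2.76 in the culture, 1.86 in the tail and 1.96 in D6 PM as a whole. Within the culture it was highest in the tendon-like code 2, at 5.31 (95% interval 5.24 to 5.38), and lowest in code 9 (0.863) and the endothelium-like code 11 (0.994). The tendon-like code 1 of the culture had 1.91 (1.87 to 1.94) and the cartilage-like code 4 had 1.90, while the same codes of the tail had 0.412 (0.397 to 0.427) and 0.424. D6 PM code 1 had 0.387 (0.376 to 0.398). With separate lists of other S and other mitotic genes the balance was 2.18 in culture code 1, 0.856 in tail code 1 and 1.13 in D6 PM code 1, so D6 PM code 1 then lay above 1. With medians over genes the balance was well below the summed value in each of these clusters, and the values are given under the processing. The balance in the other large clusters was 2.51 in culture code 3 and 1.57 in code 5, and 1.91 in D6 PM code 2 and 4.01 in code 3. The neuron-like tail code 10 had 0.218 (0.176 to 0.268). At the other end stood the erythroid-like tail code 12 with 26.2 (19.4 to 36.3), from 1087 CPM of mitotic and 41.4 CPM of S genes.

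**Figure D2:**
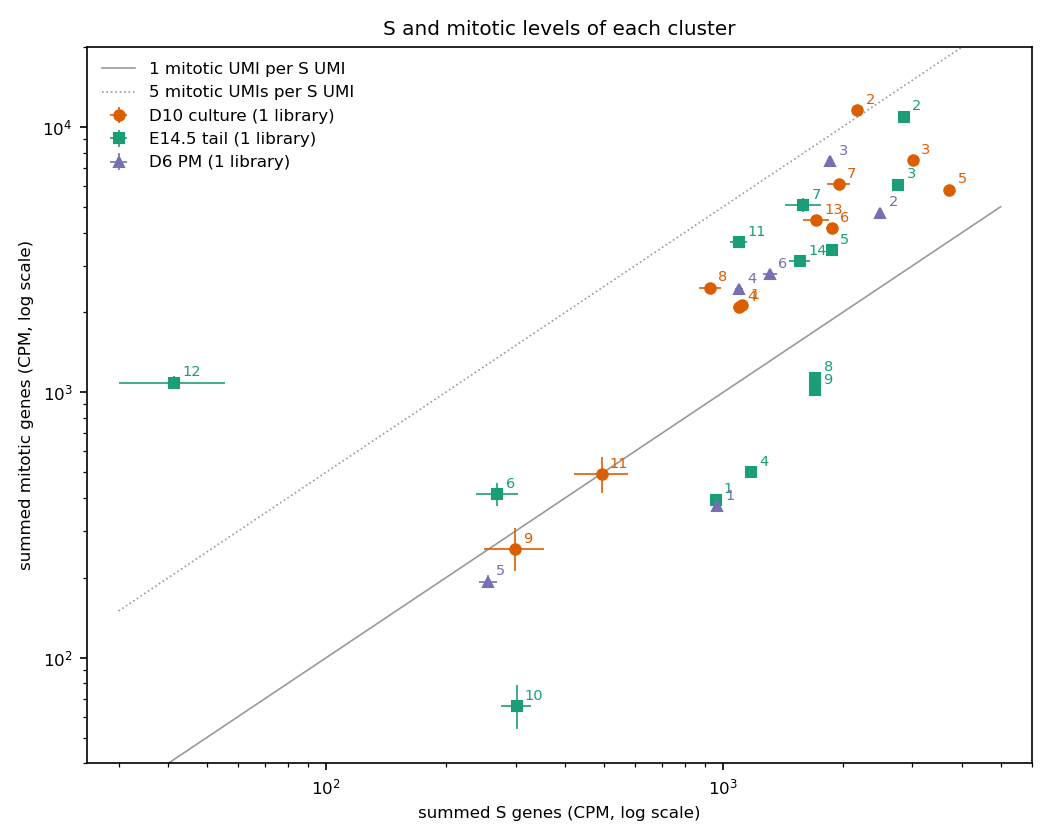
Summed mitotic genes against summed S genes for each cluster (CPM, both axes log), with the cluster code beside each point, a color and marker per library and 95% Poisson bars that cover counting error only. The gray lines mark 1 and 5 mitotic UMIs per S UMI. Culture codes 1 and 4 lie above the line of 1, at 1.91 and 1.90, and the same codes of the tail lie below it, at 0.412 and 0.424.

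Each library had a pair of clusters that share marker genes but differ in the cell cycle, namely codes 2 and 1 of the culture, codes 2 and 1 of the tail, and codes 3 and 1 of D6 PM. The member led by cell cycle genes is called the cycling cluster below. Nearly all mitotic genes were at least 2-fold higher in it in each pair, and fewer S genes were. No member was 2-fold lower in a pair, where 1.91% of genes in the culture, 4.96% in the tail and 2.32% in D6 PM were. In the culture 26 of 27 mitotic and 8 of 20 S genes passed 2-fold, where 3.53% of all genes with at least 50 UMIs over both clusters did. In the tail 27 of 27 and 14 of 20 did, against 4.83% of genes, and in D6 PM 27 of 27 and 11 of 20, against 2.75%. Since these clusters were drawn partly on such genes, the counts describe the clusters. The summed mitotic ratio was 5.44 (5.37 to 5.50) in the culture, 27.7 (26.9 to 28.7) in the tail and 19.9 (19.4 to 20.5) in D6 PM, and with a separate list of 35 other mitotic genes 3.27, 7.54 and 4.65. The summed S ratio was 1.95 (1.92 to 1.99), 2.98 (2.91 to 3.06) and 1.93 (1.88 to 1.97). The median ratio over the mitotic genes was 5.57, 33.7 and 19.8, over the S genes 1.85, 2.58 and 2.09, and over all genes tested 0.947, 0.907 and 0.975. Median depth was 7324 against 4918.5 UMIs per cell in the culture pair, 22536 against 13463 in the tail pair and 9477 against 7406 in the D6 PM pair, and its part in these ratios was not tested.

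*Top2a*, whose promoter above is dense in CCAAT and CHR letters, was at 1409 CPM in culture code 2 and 142 in code 1, at 1348 and 20.2 CPM in the tail pair, and at 762 and 22.7 CPM in the D6 PM pair. Its level in the cycling clusters of culture and tail was thus nearly the same, and the smaller ratio of the culture (9.89 against 66.6) came with a higher level in code 1. *Nusap1*, a spindle microtubule binder, had the largest ratio of the 47 genes in each pair, at 11.7 in the culture, 115 in the tail and 50.2 in D6 PM. *Aurkb*, the Aurora B kinase of the chromosomal passenger complex, had 11.5, 92.1 and 43.6, and *Prc1*, which bundles the central spindle, 10.9, 58.4 and 34.9. At the low end, the centromeric histone *Cenpa* had 2.15, 8.18 and 7.73 and the cyclin gene *Ccnb2* 1.85, 8.19 and 5.73. *Ccnb1*, the other B-type cyclin, had 5.54, 49.4 and 26.9. So the order of these mitotic genes was alike in the 3 pairs, with *Nusap1* and *Aurkb* above *Ccnb1* and *Ccnb1* above *Cenpa* and *Ccnb2*, while all were compressed in the culture.

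Among the S genes, those with ratios above 2 in all pairs included *Rrm2* (4.41 in the culture, 13.4 in the tail, 7.72 in D6 PM), *Cdc45* (4.42, 7.55 and 7.84) and *Gmnn* (3.09, 6.15 and 3.49). The 6 helicase subunits ranged from near 1 to about 2-fold. *Mcm6* had 1.05, 1.36 and 1.16, *Mcm2* 1.24, 1.53 and 1.12, *Mcm4* 1.15, 1.29 and 1.18 and *Mcm3* 1.36, 1.87 and 1.44. *Mcm5* and *Mcm7* were higher, with 1.75, 2.46 and 1.98, and 1.85, 2.01 and 2.17. *Ung* was the only S gene below 1 in the culture pair, at 0.504 (0.416 to 0.608), with 1.14 in the tail and 0.875 in D6 PM. The S genes thus differed among themselves, and *Mcm2*, *Mcm4* and *Mcm6* of the helicase were nearer to level in each pair than *Mcm5* and *Mcm7*.

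**Figure D3:**
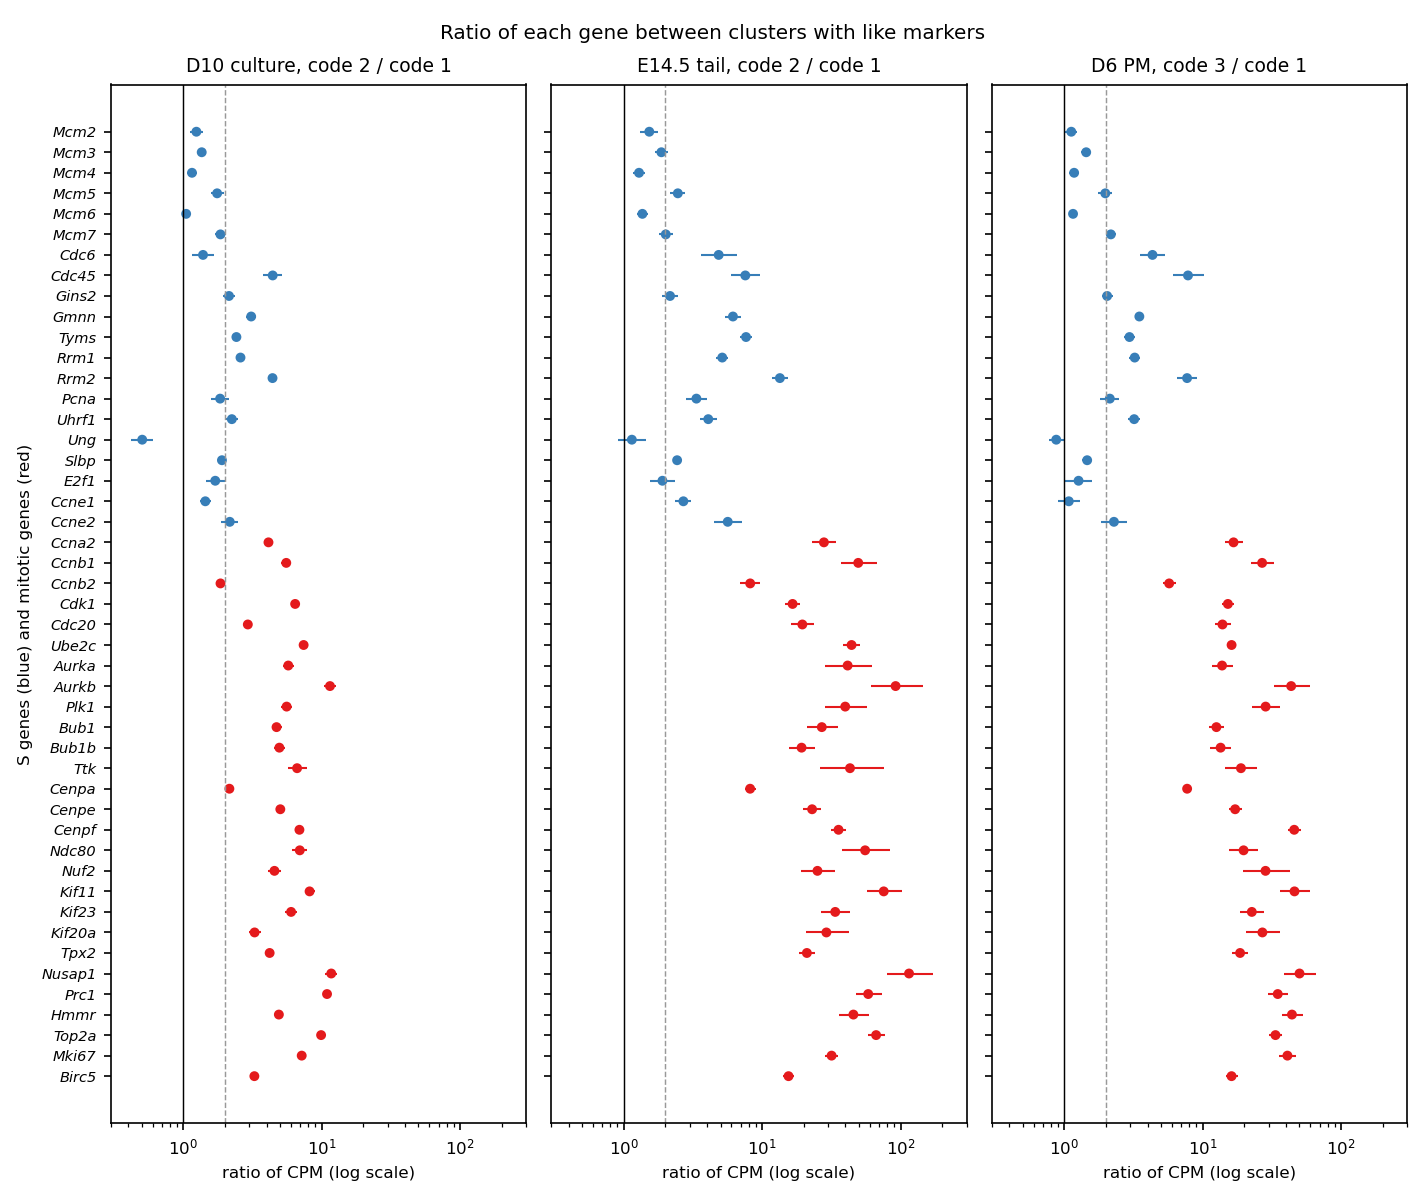
Ratio of CPM of each gene (rows, S genes blue, mitotic genes red) between the cycling cluster and its partner in each library, on a log axis. Points are ratios and bars 95% intervals of counting error, the solid line marks 1 and the dashed line 2. Most red points lie to the right of most blue ones, with some overlap in each panel (*Ccnb2* at 1.85 and *Cdc45* at 4.42 in the culture), and with *Nusap1* at 11.7, 115 and 50.2 and *Mcm6* at 1.05, 1.36 and 1.16.

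The cluster codes shared by culture and tail allow the question of how far the cultured cells resemble their tail counterparts in the cell cycle. In the tendon-like code 1 the mitotic genes were several-fold higher in the culture and the S genes nearly level. In the tendon-like code 2 the mitotic genes were nearly level and the S genes lower in the culture. The cartilage-like code 4 resembled code 1, and the endothelium-like code 11 went the other way.

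In code 1 (2964 culture and 685 tail cells) the summed mitotic genes stood at 2125 CPM in the culture and 394 in the tail, a ratio of 5.39 (5.22 to 5.57), and 2.35 (2.30 to 2.39) with the other mitotic genes. All 27 were at least 2-fold higher, against 8.74% of genes tested. *Hmmr*, a spindle assembly factor, was at 105 CPM in the culture and 7.01 in the tail, 14.9-fold higher (11.8 to 19.2). *Aurka*, the centrosomal Aurora A kinase, stood at 35.9 and 2.86 CPM, 12.5-fold, and *Plk1*, the polo-like kinase, at 36.7 and 3.65 CPM, 10.0-fold. The smallest ratios were those of *Cdk1*, 2.76 (80.5 against 29.1 CPM), and *Mki67*, 3.93 (133 against 33.8 CPM). Thus *Hmmr*, *Aurka* and *Plk1* differed more than *Cdk1* and the common proliferation marker *Mki67*. This did not hold for kinase and spindle genes as classes. *Bub1b* (38.2 against 9.19 CPM) and *Kif23* (32.7 against 7.31 CPM) lay nearer to *Mki67*. The median over the mitotic genes was 6.73, and over all genes tested 0.862.

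The S genes of code 1 stood at 1114 CPM in the culture and 957 in the tail, a ratio of 1.16 (1.14 to 1.19). This direction reversed with a separate list of 26 other S genes, which gave 0.923 (0.903 to 0.942). Of the 20 S genes, *Rrm2* (2.76) and *Cdc6* (2.22) passed 2-fold, a share near the 8.74% of all genes tested. With the mean of per-cell CPM only 1 S gene passed. No S gene was 2-fold lower, where 17% of genes tested were. The lowest ratios were *Slbp* at 0.689, *Mcm5* at 0.729 and *Mcm4* at 0.736, and the median was 1.22.

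In code 2 (1353 and 186 cells) the mitotic sums were 11557 and 10937 CPM, a ratio of 1.06 (1.05 to 1.07), and no mitotic gene passed 2-fold in either direction, where 7.72% of genes tested were higher and 11.5% lower. Ratios ran from 0.796 (*Kif23*, a kinesin of cytokinesis) to 1.73 (*Aurka*), with *Hmmr* at 1.60 and *Plk1* at 1.41. The S sum was 0.762 (0.746 to 0.779) of the tail level. All 20 S ratios lay below 1 and none was 2-fold lower, from *Mcm5* (0.520), *Pcna* (0.521) and *Slbp* (0.539) to *Gins2* (0.988). Median depth in code 2 was 7324 UMIs in the culture and 22536 in the tail. Erythroid markers summed to 5.1 and 8099 CPM, tendon markers to 7385 and 5104 and cartilage markers to 950 and 1400. The part of these was not tested. *Kif20a* and *Nusap1*, which were 9.95-fold and 10.0-fold higher in the culture in code 1, had 1.12 and 1.02 in code 2.

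In the cartilage-like code 4 (855 and 241 cells) the mitotic sum was 4.18-fold higher in the culture (3.97 to 4.42), and that of the other mitotic genes 2.21-fold (2.13 to 2.29). Median depth there was 3696 and 13136 UMIs, cartilage markers summed to 4193 and 8292 CPM and erythroid markers to 6.9 and 5732 CPM, and the part of these was not tested. *Ttk*, with 42 and 7 UMIs, had too few to be counted, and the other 26 all passed 2-fold, against 6.94% of genes tested. Members such as *Plk1* (108 and 6 UMIs), *Aurkb* (54 and 8) and *Ndc80* (53 and 12) reached 50 UMIs mostly through the culture, where they are high. This count of genes thus adds nothing to the sums. *Plk1* had a ratio of 17.9, *Hmmr* of 15.0 and *Cdc20* of 8.92. The S sum was 0.933 of the tail level and no S gene passed 2-fold in either direction, where 10.8% of genes tested were lower. In the endothelium-like code 11 (58 and 71 cells) the mitotic sum of the culture was 0.133 of the tail level (0.113 to 0.156). There all 25 mitotic genes with enough UMIs were at least 2-fold lower, against 13.4% of genes tested, and 10 of 14 S genes were. No member was 2-fold higher there, where 9.36% of genes were. Culture code 11 held 162 mitotic and 163 S UMIs in all, and tail code 11 5226 and 1552. Members thus reached 50 UMIs mostly through the tail, where they are high, and these counts add nothing to the sums. *Cdk1* was at 24.3 CPM in the culture and 275 in the tail. With the list of other mitotic genes the ratio was 0.403 (0.367 to 0.442). Tendon markers summed to 922 CPM in the culture and 114 in the tail, with 640 and 23.3 CPM of *Scx*, and erythroid markers to 12.1 and 9794 CPM. Median depth was 5157 and 18809 UMIs in code 11, and the part of these was not tested.

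**Figure D4:**
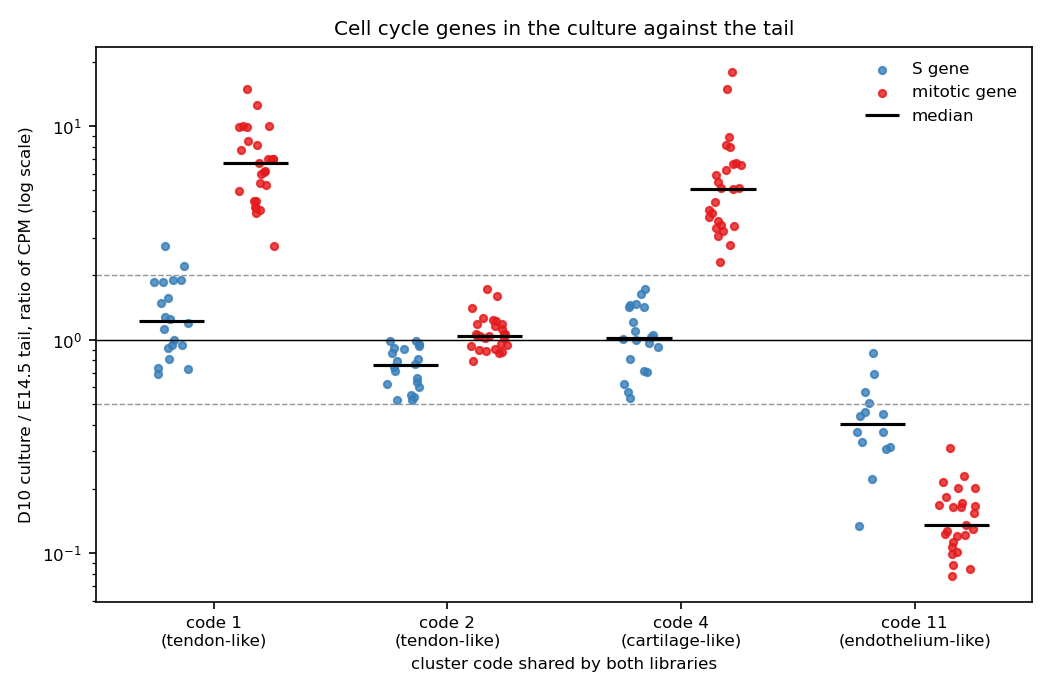
Ratio of CPM, D10 culture over E14.5 tail, of each S gene (blue) and mitotic gene (red) with at least 50 UMIs over both libraries in the 4 cluster codes described, on a log axis. Counts under 3 UMIs were set to 3, which touches 5 mitotic genes of code 11. Black bars are medians, the solid line marks 1 and the dashed lines 2-fold. Red points lie above 2 in codes 1 and 4, around 1 in code 2 and below 0.5 in code 11.

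Several measures moved with the code 1 comparison. Median depth was 4918.5 UMIs per cell in the culture and 13463 in the tail. Pluripotent markers summed to 35.7 CPM in the culture code and 4.1 in the tail code, against 5575 in culture code 3. Erythroid markers summed to 24.6 and 1893 CPM, and tendon markers to 7716 and 6404, with *Scx* at 2410 and 1472 CPM and *Tnmd*, a marker of maturing tendon, at 23.6 and 93.0. The part of these in the mitotic difference was not tested. In bulk sums like these, more dividing cells and more mitotic RNA per cell cannot be told apart, so cells were also counted.

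Inhibitors of cyclin-dependent kinases differed as well. *Cdkn1a* (p21), a target of p53, was at 524 CPM in culture code 1 and 2.57 in tail code 1, 204-fold higher (139 to 312). It was also 79.2-fold higher in the cycling code 2, at 695 against 8.78 CPM. All culture clusters described had it, from 137 CPM in code 5 to 2125 in code 9, as did all D6 PM clusters (281 to 1693 CPM). *Cdkn2a*, which encodes p16 and p19ARF, had 1724 UMIs (104 CPM) in culture code 1 and 1 UMI in tail code 1, and *Cdkn2b* (p15) 115 and 0.395 CPM. Within the culture *Cdkn2a* and *Cdkn2b* were lower in code 2 than in code 1, at 0.353 and 0.423, and *Cdkn2c* (p18) was 6.42-fold higher. *Cdkn1c* (p57) was lower in the culture, 1449 against 3696 CPM in code 1, as was the cyclin gene *Ccnd1*, 104 against 210 CPM. *Ccng1*, another p53 target, was higher, 180 against 21.1 CPM.

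Between day 6 and day 10, both lists were higher at D10 over whole libraries. The mitotic sum was 2.09-fold and the S sum 1.49-fold higher, and 17 of 27 and 3 of 20 genes passed 2-fold, against 10.6% of genes tested. No member was 2-fold lower, where 12% of genes were. *Nuf2* (2.71), *Tpx2* (2.69) and *Plk1* (2.63) led the mitotic genes, and *Ccne1* (2.95), *Rrm2* (2.33) and *Ccne2* (2.02) were the S genes that passed. Whole libraries mix clusters of different size, and the cycling clusters held 1353 of 7821 cells at D10 and 821 of 5954 at D6. The pluripotent-like clusters can also be set against each other, although their markers differ. There the mitotic sum was 7519 CPM at D10 (culture code 3) and 4749 at D6 (code 2), 1.58-fold higher, and the S sum 1.21-fold. Pluripotent markers summed to 5575 CPM at D10 and 7940 at D6, with *Nanog* at 131 and 326. Tendon markers summed to 151 and 32.1 CPM and muscle markers to 90.7 and 12.3, and the part of these was not tested. *Cdc20* (2.33, 344 against 148 CPM), *Plk1* (2.27), *Nusap1* (2.11) and the helicase activator *Gins2* (2.07) passed 2-fold, against 6.86% of genes tested. These are few of the members, a share not far above that of all genes. No member was 2-fold lower, where 4.4% of genes were. With the mean of per-cell CPM *Gins2* did not pass.

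Within the culture, the pluripotent-like code 3 differed from both tendon-like clusters. Against code 1 its mitotic genes were 3.54-fold higher, with 24 of 27 past 2-fold, and its S genes 2.69-fold, with 14 of 20, where 22.9% of genes tested were. *Ccne2* was the exception, at 0.367 of the code 1 level, where 24.1% of genes were 2-fold lower. Against code 2 its mitotic sum was lower, at 0.651. Of the 27 mitotic genes 4 were at least 2-fold lower, *Nuf2* (0.314), *Mki67* (0.346), *Birc5* (0.440) and *Aurkb* (0.441), a smaller share than the 21.4% of genes tested. Its S sum was 1.38-fold higher. *Ung* (10.2), *Mcm2* (3.43), *Mcm3* (2.67), *Mcm5* (2.59), *Mcm7* (2.45) and *Mcm4* (2.21) were 2-fold higher, where 22.8% of genes tested were, and *Ccne2* (0.170) and *Rrm1* (0.492) were 2-fold lower. These 6 of 20 S genes past 2-fold, *Ung* and 5 helicase subunits, are a share not far above that of all genes. Culture code 5 had S genes 1.24-fold and mitotic genes 0.772-fold of the code 3 level, and the cyclin E genes *Ccne1* (2.31) and *Ccne2* (2.39) passed 2-fold, against 7.75% of genes, with no member 2-fold lower, where 9.5% of genes were. Those cyclin E genes are few among the members of both lists, a share no larger than that of all genes. The cartilage-like code 4 was level with code 1, at 0.983 for the mitotic (0.957 to 1.01) and 0.984 for the S sum (0.950 to 1.02), with no member past 2-fold, where 2.51% of genes were higher and 6.34% lower.

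Some clusters had little of either list. D6 PM code 5, led by *Lyz2* and *Mmp13*, held 194 CPM of mitotic and 256 of S genes. Against the paraxial mesoderm-like code 4, all 27 mitotic and 17 of 20 S genes were at least 2-fold lower, where 25% of genes tested were, with a mitotic ratio of 0.0791 (0.292 with the list of other mitotic genes). *E2f1*, the factor of S phase entry, was the exception, 3.23-fold higher (44.6 against 13.8 CPM, from 263 and 84 UMIs), where 16.5% of genes were higher. Culture code 9, led by *Lyz2* and *Mmp3*, likewise had 0.121 of the mitotic (0.304 with the other mitotic genes) and 0.268 of the S level of code 1, with 26 of 27 and 15 of 20 genes 2-fold lower, against 17.1% of genes. Culture code 9 held 113 mitotic and 131 S UMIs in all, against 35252 and 18482 in code 1. D6 PM code 5 held 1142 and 1507, against 14875 and 6666 in code 4. Members thus reached 50 UMIs mostly through the clusters set against these 2, where they are high, and the counts of genes add nothing to the sums. Kinase inhibitors differed in direction in culture code 9 and D6 PM code 5. *Cdkn1a* was at 2125 CPM in culture code 9 and 1693 in D6 PM code 5, *Cdkn2a* at 1553 and 751, and *Cdkn2b* at 435 and 198, all above the clusters they were set against. *Cdkn1c* was lower, at 292 CPM in culture code 9 against 1449 in code 1, and at 186 in D6 PM code 5 against 1724 in code 4. Leukocyte markers summed to 740 CPM in culture code 9 and 2.71 in code 1, and to 173 in D6 PM code 5 and 5.92 in code 4. The part of these was not tested. The study kept its stem cells on irradiated embryonic fibroblasts, and whether culture code 9 and D6 PM code 5 hold such cells was not tested.

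In the tail, the neuron-like code 10 had 65.8 CPM of mitotic genes in sum, and *Cdk1* there was at 1.19 CPM. It was lowest for 18 of the 27 mitotic genes, a count with no share of all genes beside it. The skin epithelium-like code 8 had 0.188 of the mitotic level of code 3, with 27 of 27 genes 2-fold lower against 3.12% of genes tested, and 0.618 of its S level, with 7 of 20 lower. Code 3 is led by *S100a9* and held skin epithelium markers at a like level (5777 CPM, against 6354 in code 8). Its erythroid markers (11541 against 3468 CPM) and leukocyte markers (78.4 against 1.72) were higher, and the part of these was not tested. The cartilage-like code 4 was close to code 1, at 1.27 for the mitotic and 1.23 for the S sum. Of its 22 mitotic genes with enough UMIs, *Nusap1* (2.22, 1.20 to 4.02, from 21 and 29 UMIs) passed 2-fold, a share near the 3.52% of all genes. No member was 2-fold lower, where 8.56% of genes were.

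To count cells, each cell was thinned to 3000 UMIs, which left out 1157 culture, 100 tail and 1006 D6 PM cells, and cells with at least 3 mitotic UMIs were counted. Neurons as a rule no longer divide, and in the neuron-like tail code 10 0 of 137 cells passed, which allows up to 2.19% by the rule of 3 counts, and up to 2.66% by the exact 95% interval. Without thinning, at a median of 11811 UMIs, 7.30% of these cells passed. In tendon-like code 1 the share was 38.2% of culture cells (990 of 2595, 36.3 to 40.1%) and 8.26% of tail cells (56 of 678, 6.30 to 10.6%), or 47.8% and 30.7% without thinning. Code 4 had 37.0% and 11.3%, or 37.1% and 32.8% without thinning, which left out 214 of 855 culture cells and 1 of 241 tail cells of that code. In code 2 nearly all cells passed, 99.9% of the culture and 96.8% of the tail. Thus at equal depth a larger share of the culture cells kept had mitotic RNA in codes 1 and 4, while in code 2 nearly every cell of both had it. The lowest shares among the culture clusters described were 6.38% in code 11 (3 of 47 cells) and 11.1% in code 9 (4 of 36). How much of these shares is background was not tested. Of the culture code 1 cells, 9.63% had 2 and 4.70% had 3 mitotic UMIs, so the share moves with the cut, which is a point on a range and not a cell type.

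In D6 PM 10.5% of code 1 cells passed (220 of 2091), 77.1% of code 2, 96.7% of code 3, 38.0% of code 4 and 3.39% of code 5. Without thinning these were 30.2%, 89.8%, 99.4%, 58.4% and 10.1%. The cells that passed held 93.4% of the mitotic UMIs of culture code 1 and 49.9% of those of D6 PM code 1. The mitotic RNA of culture code 1 was therefore concentrated in a minority of cells, with a mean of 14.7 mitotic UMIs each, and that of D6 PM code 1 lay to a greater extent in cells with 1 or 2.

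S and mitotic RNA occurred in the same cells up to a point. Over all culture cells the mean number of S UMIs in 3000 was 2.22 in cells with no mitotic UMI, 5.14 with 3 to 5, 8.83 with 11 to 20 and 4.45 with 41 or more. The tail gave 2.27, 5.51, 7.80 and 3.56 in the same ranges, and D6 PM 2.14, 5.25, 6.86 and 3.55. S UMIs were thus most frequent at middle mitotic levels in all 3 libraries. Within the cycling clusters the S mean declined along the range, from 11.5 S UMIs at 6 to 10 mitotic UMIs to 3.88 at 41 or more in culture code 2, from 12.1 at 11 to 20 to 3.71 in tail code 2, and from 9.17 at 3 to 5 to 3.35 in D6 PM code 3. Culture code 1 stayed lower throughout, with a highest mean of 4.43 at 6 to 10. Before thinning, culture cells with at least 3 mitotic UMIs had a median depth of 7693 UMIs and those with none 4786, and the part of cell size in these means was not tested.

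**Figure D5:**
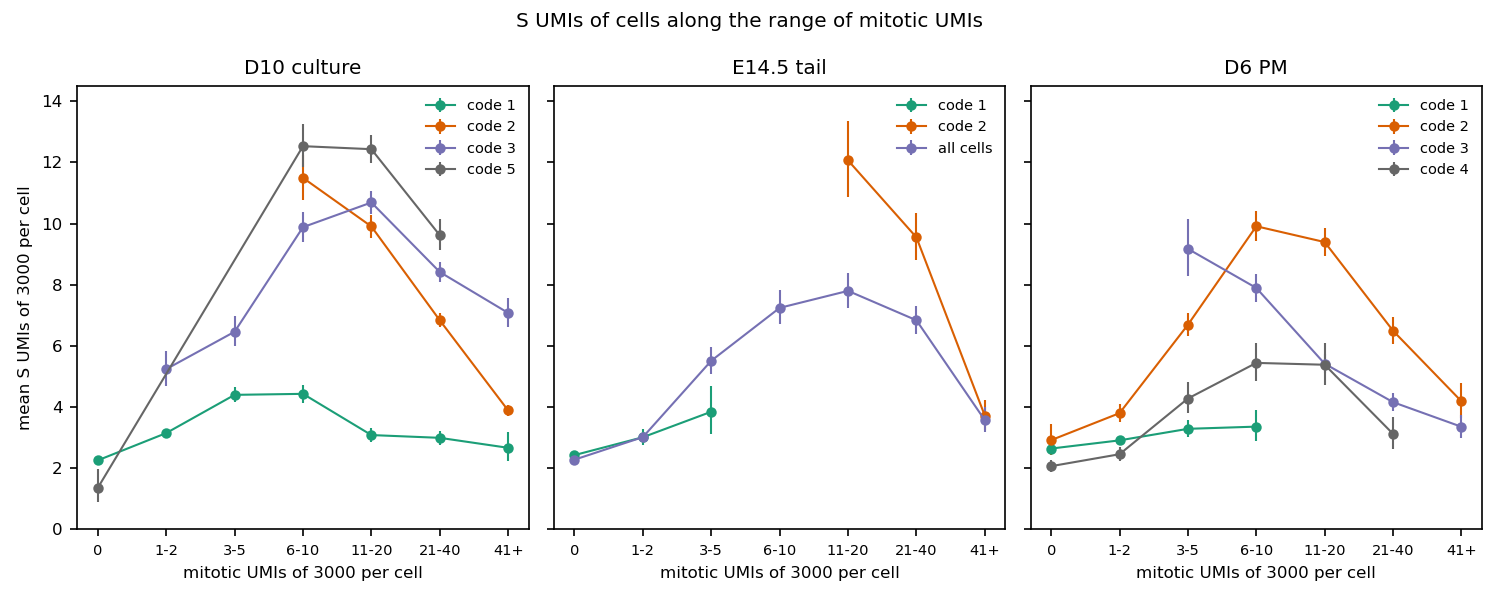
Mean S UMIs per cell (y axis) against the mitotic UMIs of the cell (x axis, binned), both of 3000 UMIs after thinning, for selected clusters of each library. Bars are 95% Poisson intervals of counting error. Culture codes 2, 3 and 5, tail code 2 and D6 PM codes 2 and 3 reach 9 S UMIs or more at low or middle mitotic counts and decline after that, and culture code 1 stays below 5.

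Cells were also compared by whether they held a UMI of each single member. No like share over all genes is available here, so the counts below describe the members only. In culture code 2, cells with a UMI of a given mitotic gene had more UMIs of the other mitotic genes for 27 of 27 genes (1.13-fold to 2.12-fold) and fewer S UMIs for 27 of 27 (median ratio 0.706). Cells with a UMI of a given S gene had more of the other S genes for 20 of 20 (median 1.37) and fewer mitotic UMIs for 20 of 20. Tail code 2 gave the same for its 17 S genes and 27 mitotic genes with enough cells, and D6 PM code 3 for 20 of 20 S genes and, as to fewer S UMIs, 25 of 27 mitotic genes. Within the cycling clusters S and mitotic UMIs thus tended to lie in different cells, although these clusters were drawn partly on such genes. In other clusters the opposition was incomplete. In culture code 1, 19 of 27 mitotic genes came with more S UMIs (median 1.04), while 12 of 20 S genes came with fewer mitotic UMIs (median 0.856). Culture code 3 gave 16 of 27 and 15 of 20 (median 0.946), and D6 PM code 2 gave 21 of 27 (median 1.05) and 9 of 19 (median 1.01).

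The mitotic cells of codes 1 and 2 of the culture differed in makeup. Among cells with at least 10 mitotic UMIs of 3000, *Top2a* made up 4.67% of the mitotic UMIs of code 1 (518 cells) and 12.5% of those of code 2 (1266 cells). *Cdk1* made up 2.10% and 4.51%, and *Prc1* 2.39% and 5.59%. In the other direction *Cenpa* made up 11.2% and 4.44%, *Birc5* 9.89% and 6.27%, *Cdc20* 4.89% and 2.10% and *Ccnb2* 3.38% and 1.19%. The 20 such cells of tail code 1 likewise had 13.5% *Cenpa*, 15.8% *Birc5* and 3.61% *Top2a*, and the 158 of tail code 2 had 4.66%, 6.29% and 12.2%. So code 1 held division genes with more *Cenpa*, *Birc5*, *Cdc20* and *Ccnb2*, and code 2 more *Top2a*, *Cdk1* and *Prc1*. Clusters were drawn on such genes, so this describes where the division between the codes lies.

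Some members left their list in single clusters. *Ube2c* in the erythroid-like tail code 12 was at 849 CPM (902 UMIs), close to its level of 948 CPM in the cycling code 2, and it made up 78.2% of the UMIs of the 27 mitotic genes there. *Cdk1* had 2 UMIs in the same cells, a count too low for an exact fold. The interval of counting error for *Ube2c* per *Cdk1* UMI ran from 124 to 3730 there. The ratio was 7.67 in the erythroid-like code 6. In the other tail clusters it was 0.736 to 1.96, leaving out code 10 for its few UMIs. After thinning, 85 of 125 cells of code 12 (68.0%, 59.1 to 76.1%) had a *Ube2c* UMI, against 2 of 137 (1.46%) of the neuron-like code 10, with median depths of 8407 and 11811 UMIs. *Nusap1* (84.7 CPM, 90 UMIs, 21.6% of cells) and *Mki67* (62.1 CPM, 66 UMIs, 4.80%) were the next members, while *Top2a* was seen in 3.2% and *Cdk1* in 0.800% of cells. Erythroid markers made up 83.1% of the UMIs of code 12, so all other genes are diluted in its CPM. The cells that passed 3 mitotic UMIs in code 12, 38.4%, therefore rest largely on *Ube2c*.

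The balance of the E-type cyclin genes differed between clusters. *Ccne2* per *Ccne1* UMI was 0.0889 in culture code 3, 0.0917 in code 5 and 0.150 in D6 PM code 2, but 0.510 in culture code 2, 0.339 in code 1, 0.566 in tail code 2 and 0.983 in D6 PM code 3. *Ccne2* was thus scarce relative to *Ccne1* in both pluripotent-like clusters and in culture code 5, and also in the muscle-like tail code 5 (0.210). *Ung* per *Mcm6* UMI showed a similar split, 0.543 in culture code 3, 0.464 in code 5 and 0.859 in D6 PM code 2, against 0.0928 in culture code 2, 0.193 in code 1, 0.166 in tail code 2 and 0.297 in D6 PM code 3. High values were not limited to these clusters, with 0.811 in D6 PM code 5 (60 and 74 UMIs), 0.480 in the skin epithelium-like tail code 8 and 0.392 in D6 PM code 1. *Nuf2* and *Ndc80* encode partners in 1 kinetochore complex, yet *Nuf2* per *Ndc80* UMI was 0.477 in culture code 3, 0.536 in D6 PM code 2 0.573 in D6 PM code 3 and 0.397 in D6 PM code 1 (31 and 78 UMIs), and 0.919 in culture code 2, 0.889 in tail code 2 and 0.990 in D6 PM code 4. *Mki67* per *Top2a* UMI was 0.328 in culture code 3 and 0.366 in D6 PM code 2, and 0.675 in culture code 2 and 0.795 in tail code 2. Relative to these partners, the pluripotent-like clusters of both cultures had less *Ccne2*, *Nuf2* and *Mki67* and more *Ung* than the cycling tendon-like clusters, and other clusters had some of the same values. Each value compares a ratio between clusters, since the capture of any 2 genes need not be equal.

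In the cluster pairs other cell cycle genes gave the same directions, with smaller ratios for the mitotic genes. A list of 35 other mitotic genes was 3.27-fold higher in culture code 2 than in code 1 (32 of 35 past 2-fold), 7.54-fold in the tail pair (35 of 35) and 4.65-fold in the D6 PM pair (34 of 35). Of all genes tested, 3.53%, 4.83% and 2.75% were 2-fold higher in these pairs. Between culture and tail in code 1 the list was 2.35-fold higher, with 26 of 35 genes past 2-fold, against 8.74% of genes tested. The highest were *Gtse1*, which acts on microtubules in G2 and M (9.10 against 0.198 CPM, from 151 and 2 UMIs, with an interval of the ratio from 12.5 to 384), *Psrc1* (136 against 6.81 CPM) and *Cdca2* (10.7), and the lowest was the chromatin protein gene *Hmgb2* (1.09). A list of 26 other S genes was 2.10-fold, 2.74-fold and 2.12-fold higher in the 3 pairs, with 17, 21 and 16 genes past 2-fold, against the same shares of all genes. Between culture and tail in code 1 it had 5 genes 2-fold higher and 2 lower, from *E2f8* (2.70) down to *Dscc1* (0.390) and *Cdca7* (0.374). Of all genes tested there, 8.74% were higher and 17% lower. For the mitotic genes both lists thus gave a higher culture level in code 1, and for the S genes the lists differed in direction, as stated above.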

How the data were processed

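The authors sequenced 1 library per group by the 10x Genomics method, depleted dead cells beforehand, aligned with Cell Ranger without multi-mapping reads and clustered with Seurat 3.0. They removed cells above 7.5% mitochondrial reads and the bottom and top 2%. The genome build of the counts is not given in the sources used here. The deposited tables hold raw UMI counts per gene and cell with a cluster code per cell. All cells were used. UMIs were summed per gene, cluster and library and divided by all UMIs of the same cells (CPM). Intervals are exact at 95% (Poisson for levels, conditional binomial for ratios, Clopper-Pearson for shares). A gene counted as higher or lower at 2-fold if it had at least 50 UMIs over both groups, with counts under 3 set to 3. With 1 library per group no test was made. Scrublet (expected 6%) called 116, 9 and 81 doublets (1.48%, 0.439% and 1.36%), which were kept and left out as an alternative. Clusters of under 30 cells were not described, and cells were thinned with seed 1. The members and all gene lists were chosen with earlier results of these data known. Every member could be named. From the lists of other cell cycle genes, the 3 highest and 3 lowest ratios could be, and from the inhibitor list those given beside a result. Alternatives were the doublet removal, the removal of cells under 1000 genes, the mean of per-cell CPM, CPM without mitochondrial, ribosomal and hemoglobin genes, the sum without its most abundant gene, the median over genes, other gene lists, a fold of 1.5, a minimum of 10 UMIs, thinning to 2000 or 5000 UMIs, cuts of 2 or 5 mitotic UMIs and promoter windows of 150 bases. Python 3.11.15, NumPy 2.4.6, SciPy 1.17.1, pandas 2.3.3, Scanpy 1.11.5 and Matplotlib 3.10.9 were used, and the scripts were tested on simulated data.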

Additional observations from a re-analysis of the deposited data

Results flagged for a closer look

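The ratio of culture to tail was on opposite sides of 1 in different cell clusters, beyond counting error, and this difference was not tested, since each group is 1 library. For the summed mitotic genes it was 5.39 in the tendon-like code 1, 4.18 in the cartilage-like code 4 and 1.06 in the tendon-like code 2, but 0.133 in the endothelium-like code 11. For the summed S genes it was 1.16 in code 1, but 0.762 in code 2, 0.933 in code 4 and 0.451 in code 11, and the list of 26 other S genes was below 1 in all 4 codes (0.923, 0.707, 0.891 and 0.528), so the S genes lay on opposite sides of 1 with the main list only. Code 11 rests on 58 culture and 71 tail cells.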

How the results depend on the processing

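Each value that moved, by the rule given near the end of this section, has its counterpart in the report. The order is culture code 2 over 1, tail code 2 over 1, D6 PM code 3 over 1, culture over tail in code 1 and pluripotent-like culture code 3 over D6 PM code 2. Without doublets the mitotic ratios became 5.56 in the culture pair and 1.57 between pluripotent-like clusters. As a mean of per-cell CPM, the mitotic ratios were 5.68 in the culture pair, 17.3 in D6 PM, 5.07 for culture over tail and 1.68 between pluripotent-like clusters, the S ratios 2.28 (culture), 3.39 (tail), 1.97 (D6 PM) and 1.27 (pluripotent-like), and the mitotic UMIs per S UMI 2.04 in culture code 1, 0.46 in tail code 1 and 0.43 in D6 PM code 1. Without mitochondrial, ribosomal and hemoglobin genes in the CPM, culture over tail was 1.14 for S genes, and the pluripotent-like ratios 1.55 (mitotic) and 1.18 (S). Without the most abundant gene of each list, the mitotic ratios were 5.12, 25.6 and 18.4 in the 3 pairs, the S ratios 2.01, 3.07 and 2.05 and, for culture over tail, 1.24, and the balances 1.96, 0.452 and 0.423. Medians over genes gave mitotic ratios of 5.57 (culture), 33.7 (tail), 6.73 (culture over tail) and 1.53 (pluripotent-like), S ratios of 1.85, 2.58, 2.09, 1.22 and 1.18, and balances of 1.23, 0.207 and 0.195. The other gene lists gave mitotic ratios of 3.27, 7.54, 4.65, 2.35 and 1.36, S ratios of 2.1, 2.74, 2.12, 0.923 (the reversed direction given in the report) and 1.31, and balances of 2.18, 0.856 and 1.13. At a 1.5-fold limit, 13 S genes passed in the culture pair and 7 for culture over tail, and 14 mitotic and 5 S genes between pluripotent-like clusters, where 842 of 12703, 1963 of 13553 and 1913 of 12795 of all genes tested were 1.5-fold higher. With per-cell means, 1 S gene passed for culture over tail, and 5 mitotic and 0 S genes between pluripotent-like clusters. The share of cells with mitotic UMIs was 31.5% at 2000 and 53.9% at 5000 UMIs in culture code 1, 5.71% at 2000 in tail code 1, and 6.64% and 18.9% in D6 PM code 1. With cuts of 2 or 5 UMIs it was 47.8% and 29.9%, 13.7% and 5.16%, and 22.2% and 4.16%. The S ratio of D6 PM cells with at least 3 over those with 0 mitotic UMIs was 3.01 at 5000 UMIs and 2.80 at 3000. Of the other values of lists and shares, 95 stayed. Levels, ratios and shares stayed if within counting error, and counts of members past 2-fold if within 1.5-fold of the main count. Of the values of single members, 863 stayed, 77 moved and 0 reversed. No replicate could be left out, with 1 library per group. Depth limits the clusters of under 100 cells and genes under 50 UMIs.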
